A study of Mus musculus with 3 samples.

Results

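Of 41033 kept barcodes from tdTomato-sorted mouse larynges, 96 were neuroendocrine and calcitonin-positive cells, 52 in library 1, 31 in library 2 and 13 in library 3. A barcode was kept if it held 500 to 8000 detected genes, 1000 to 40000 unique molecular identifiers (UMIs, each a counted transcript molecule) and at most 8% mitochondrial UMIs, unless it held UMIs of all of *Krt5*, *Ltf*, *Scgb3a1* and *Dcn*, genes that mark different cell types. A kept barcode was a member if *Chga*, *Chgb*, *Scg2* and *Calca* together had at least 5 UMIs and at least 5 per 10000 UMIs of the cell. All 3 libraries came from Lrig1CreERT2/+; ROSA26CAG-LSL-tdTomato/+ mice, in which tamoxifen lets the Cre made from 1 *Lrig1* allele switch on the red reporter tdTomato, and cells were sorted for tdTomato 1 day after recombination. Each library was a pool of 10 larynges, 5 from males and 5 from females, so the library is the replicate (n = 3), and the animals' age was not given in the sources used here. There was a single condition, and the cells are limited to those that passed a sort for a reporter driven by *Lrig1*. The members were compared with the 28957 other kept cells of the same libraries that held an *Epcam* UMI, *Epcam* being a pan-epithelial adhesion gene. They did not all fit their name: 90 held a UMI of the neuroendocrine factor *Insm1* or *Prox1*, most with a broad set of granule genes, and 6 had neither factor.

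Neuroendocrine cells of the airway lining are rare epithelial sensors that store peptides and amines in dense-core granules and release them onto nerves and neighbouring cells. Notch signalling restrains their fate in the surrounding epithelium. In the larynx, cells of this kind are known as sensors that trigger protective reflexes. The thyroid gland lies against the larynx and holds another neuroendocrine cell of endodermal origin, the calcitonin-producing C cell, which answers to blood calcium through the calcium-sensing receptor. Chromogranin A, chromogranin B and secretogranin II, encoded by *Chga*, *Chgb* and *Scg2*, are the bulk proteins of the granule core, and *Resp18* encodes a small protein of the same secretory route. *Calca* gives the hormone calcitonin or the neuropeptide calcitonin gene-related peptide (CGRP), depending on which 3′ exons are spliced in.

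The 4 genes that chose the members lie apart, and the bases around their starts are shown because these genes decide every count that follows. In GRCm39, *Chga* spans chr12:102520484-102531300 (+ strand), *Chgb* chr2:132622464-132637904 (+), *Scg2* chr1:79412386-79417837 (−) and *Calca* chr7:114230712-114235592 (−). The sequences are RefSeq promoters of GRCm38.p6, from 250 bases before to 50 bases after the start of the gene on its own strand, and their windows are chr12:102554691-102554990 for *Chga*, chr2:132781392-132781691 for *Chgb*, chr1:79439977-79440276 for *Scg2* and chr7:114636308-114636607 for *Calca*. Capitals mark CAGCTG, a form of the E-box, and TGACGTCA, the cyclic AMP response element. Both motifs read the same on either strand, and no 2 of the marked motifs overlap.
Chga: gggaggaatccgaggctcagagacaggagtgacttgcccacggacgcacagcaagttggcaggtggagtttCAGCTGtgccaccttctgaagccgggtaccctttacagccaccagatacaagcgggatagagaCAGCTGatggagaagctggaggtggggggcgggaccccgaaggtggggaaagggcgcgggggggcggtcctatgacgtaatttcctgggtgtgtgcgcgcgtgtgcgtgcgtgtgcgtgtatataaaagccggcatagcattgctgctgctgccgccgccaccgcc
Chgb: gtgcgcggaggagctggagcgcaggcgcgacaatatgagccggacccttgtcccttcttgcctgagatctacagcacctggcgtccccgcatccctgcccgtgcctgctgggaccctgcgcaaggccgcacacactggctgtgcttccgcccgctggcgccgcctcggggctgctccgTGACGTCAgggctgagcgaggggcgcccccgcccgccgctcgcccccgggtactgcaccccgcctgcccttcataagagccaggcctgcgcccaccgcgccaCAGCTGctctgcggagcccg
Scg2: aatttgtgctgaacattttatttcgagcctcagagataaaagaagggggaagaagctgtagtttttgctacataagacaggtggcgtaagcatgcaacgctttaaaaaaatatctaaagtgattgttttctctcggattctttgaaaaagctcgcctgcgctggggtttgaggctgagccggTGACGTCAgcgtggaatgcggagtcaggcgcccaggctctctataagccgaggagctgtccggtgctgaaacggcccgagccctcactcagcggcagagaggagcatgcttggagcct
Calca: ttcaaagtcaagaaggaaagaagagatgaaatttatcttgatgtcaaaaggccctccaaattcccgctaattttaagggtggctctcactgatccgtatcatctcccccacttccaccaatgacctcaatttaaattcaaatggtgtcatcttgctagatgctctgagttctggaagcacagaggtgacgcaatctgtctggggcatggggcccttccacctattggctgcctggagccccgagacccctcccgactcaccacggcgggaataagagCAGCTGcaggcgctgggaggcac
The *Chga* window held CAGCTG 179 and 116 bases upstream of the start. In *Chgb*, TGACGTCA lay 72 bases upstream and CAGCTG 31 bases downstream. *Scg2* held TGACGTCA 68 bases upstream, and *Calca* held CAGCTG 28 bases downstream. Among all 32851 promoters of the same length, 16.3% held CAGCTG and 1.79% held TGACGTCA. Of the 29 genes of the granule list with a promoter in the table, 14 (48.3%) held CAGCTG and 4 (13.8%; *Chgb*, *Pcsk1*, *Scg2* and *Slc18a2*) held TGACGTCA. A granule gene was counted if any of its promoters held the motif, whereas the shares over all promoters are of single promoters, so the units differ. A match of letters is a description of the window, not a shown binding site.

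The counts could not separate calcitonin from CGRP. Of the 13 protein-coding *Calca* transcripts in the annotation, 4 ended in exon 4 of the transcript Calca-202 (GRCm39 chr7:114232528-114233020), 7 ended in exons further downstream, and 2 ended further upstream. The deposited value is 1 count per gene and adds all of them. *Calca* in the following is therefore the transcript of the gene, whichever peptide it encoded.

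The 3 libraries held 18068, 10816 and 31646 barcodes with 211727921, 147898790 and 413632222 UMIs. They shared few barcode sequences, 46 between libraries 1 and 2, 165 between 1 and 3 and 96 between 2 and 3. The 4 mixed-marker genes removed 8360 barcodes within the limits, 6267 of them in library 3. Members were deep cells, with a median of 25845, 25908 and 24571 UMIs per cell in libraries 1, 2 and 3, against 13072, 17873 and 14374.5 in the other Epcam-positive cells. Depth therefore moves with every share of cells with a UMI, and levels are given as CPM, the UMIs of a gene per 1000000 UMIs of the summed cells of a library. A further 33 barcodes met the member rule but were not kept, 24 of them for too many genes or UMIs and 18 for the mixed markers, some for both, and 30 of the 33 held a UMI of *Insm1* or *Prox1*. The deposited matrices have no feature for the reporter or the recombinase, and the sort was not checked.

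Members made up 0.415% of kept barcodes in library 1 (95% Wilson interval 0.316 to 0.543), 0.434% in library 2 (0.306 to 0.616) and 0.0609% in library 3 (0.0356 to 0.104), a mean of 0.303% ± 0.21 (SD, n = 3). The interval of library 3 did not overlap with those of the others. The intervals cover counting error only. Without library 3 the mean was 0.424%, and without library 1 or 2 it was 0.248% or 0.238%.

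The values that chose the members are a description. *Calca* had a median of 55.5 UMIs per member (lowest 0, highest 1248), *Scg2* 49 (0 to 413), *Chga* 46 (0 to 178) and *Chgb* 9 (0 to 78). All 4 genes were present in 72 members and 3 of them in 19, whereas 5 members held only 1. The 4 genes together ranged from 9 to 1415 UMIs (median 191.5) and from 6.89 to 551.9 per 10000 UMIs (median 91.6). In library 2, the lowest 3 members held 9 UMIs each, at 6.89, 7.3 and 8.83 per 10000, and lacked *Insm1* and *Prox1*. The lowest by rate was 24.4 in library 1 and 24.1 in library 3. Just outside the rule, a barcode of library 3 held 8 *Calca* UMIs at 4.996 per 10000, and barcodes of library 2 held 9 UMIs at 3.68 and at 3.0. Of the latter, the barcode at 3.0 held 9 UMIs of *Insm1* and *Prox1*, and a barcode of library 2 with 8 UMIs of the rule genes at 2.18 per 10000 held 15. In library 1, a barcode with 4 UMIs at 19.5 per 10000 fell short by its count. In all, 480 kept barcodes had 1 to 4 UMIs of the 4 genes, and 7 had 5 or more at a lower rate than the rule asks.

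A low *Calca* count was not particular to epithelium. *Calca* had a UMI in 1.52%, 0.735% and 0.310% of the other Epcam-positive cells of libraries 1, 2 and 3. Fibroblast-marked cells held a *Calca* UMI in 2.01%, 0.647% and 0.206% of cells, at median depths of 11880, 11920 and 9440.5 UMIs against 13072, 17873 and 14374.5. The source of single *Calca* UMIs in cells outside the members was not tested. In members, *Calca* stood at 10530, 6299 and 948.6 CPM in libraries 1, 2 and 3, a value that the rule had chosen for.

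A UMI of *Insm1* or *Prox1* was found in 90 members and neither gene in 6, a split that the rule had not used and that was chosen after the data were seen. Among the other Epcam-positive cells, 1.88% had a UMI of *Prox1* and 0.124% one of *Insm1*. The 90 cells, 51, 26 and 13 in the libraries, held 1 to 48 UMIs of the pair (median 16.0). Of the granule and exocytosis genes outside the rule, they had 5 to 29 with a UMI (median 24), and of 17 neuroendocrine transcription factors, which include the pair, 2 to 10 (median 8). The 6 others had 1 to 7 granule genes (median 2) and 0 to 3 of the factors (median 0.5), at 5632 to 26827 UMIs per cell. In library 1, the member without the pair held 625 UMIs of *Tg*, the thyroglobulin of thyroid follicular cells, and 13 of *Pax8*, beside 37 of *Calca*. In library 2, 1 such member had 9 *Scg2* UMIs, no *Epcam* and all 5 genes of the fibroblast list. The other 4 of library 2 had 9, 457, 9 and 26 *Calca* UMIs with no granin, and UMIs of the leukocyte gene *Ptprc*, of *Gata3* and of *Il7r*, a combination typical of lymphoid cells (*Gata3* and *Il7r* were looked at after the values were seen). The cell with 457 also held 25 *Krt5* UMIs and was scored as a doublet. Outside the members, 12, 2 and 3 cells of the libraries held these 3 leukocyte genes together, and none had a *Calca* UMI. The source of *Calca* in those 4 members was not tested.

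**Figure D1:**
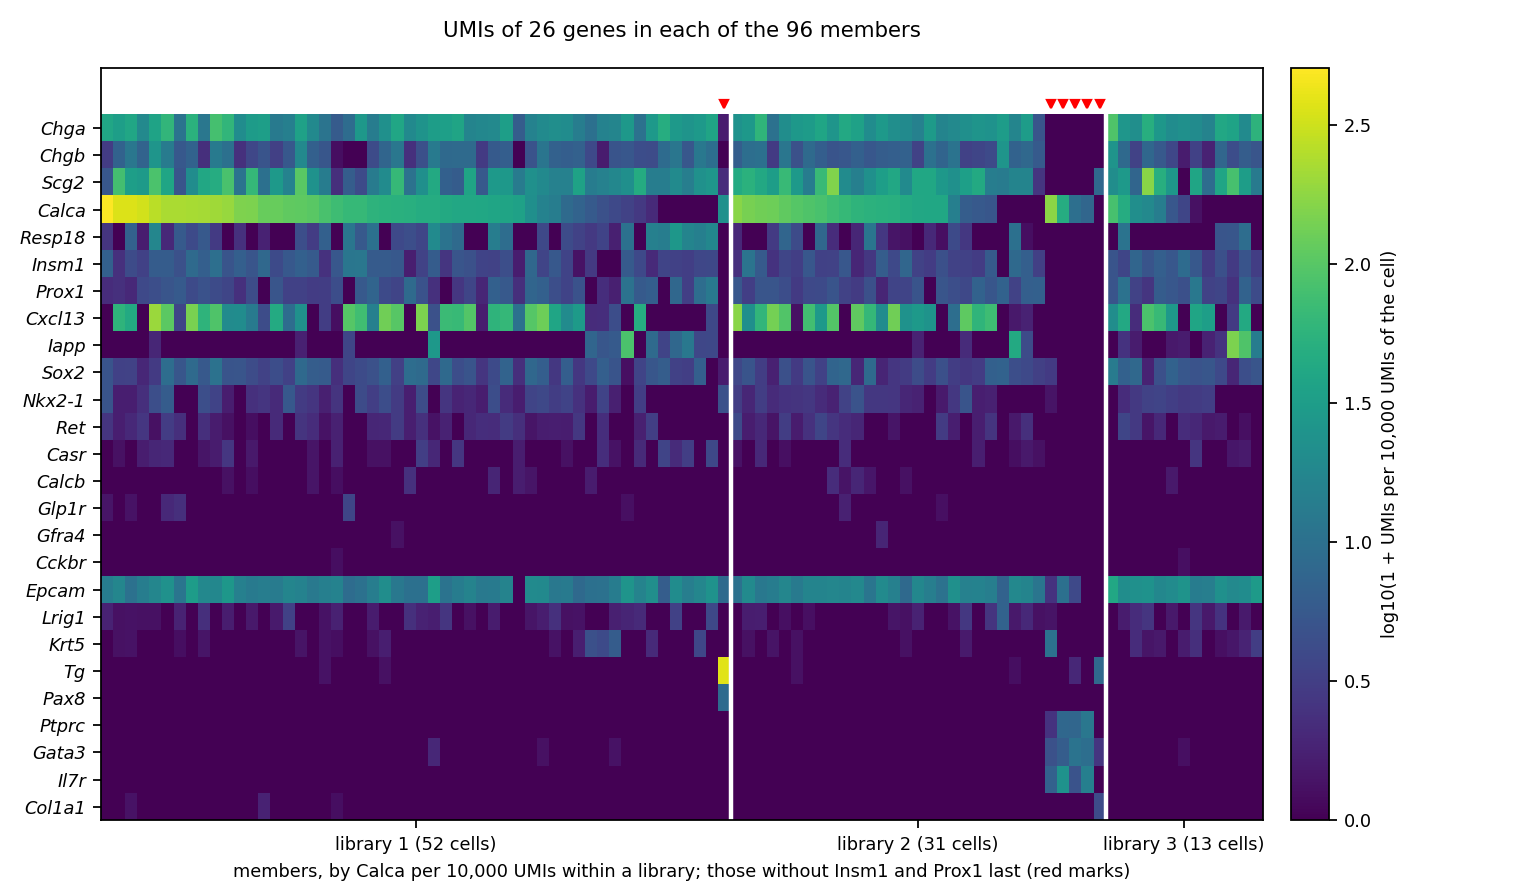
UMIs of 26 genes (rows) per 10000 UMIs in each of the 96 members (columns), as log10(1 + value) in colour, by library and in order of *Calca*. Red marks show the 6 members without *Insm1* and *Prox1*, 4 of which carry *Ptprc*, *Gata3* and *Il7r*.

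For the tests, UMIs were summed over the members and over the other Epcam-positive cells of each library and compared with edgeR, leaving out the 4 rule genes. Of 17601 genes tested, 6481 (36.8%) passed an adjusted p of 0.05, 2849 (16.2%) higher and 3632 (20.6%) lower in members. The median log2 fold change over all genes was −0.16. The cells were chosen by 4 genes, and genes that go along with those had to differ, so the counts below describe the members and are no independent evidence of what they are. Without library 1, which holds 52 of the members, the number of genes called fell to 4052.

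Of 17 neuroendocrine transcription factors, 10 could be tested, 7 were higher in members, none was lower and 3 did not pass. The shares over all genes tested were 16.2% higher and 20.6% lower. *Insm1*, a zinc-finger repressor of endocrine cells, stood at 358.5, 348.9 and 409.2 CPM in the members of libraries 1, 2 and 3 and at 0.269, 0.218 and 0.212 CPM in the other cells (log2 fold change 10.38, SE 0.18, adjusted p = 9.27e-09). *Prox1*, a homeobox factor, stood at 334.8, 313.8 and 475.9 CPM against 4.1, 2.35 and 2.57 (6.67, SE 0.28, adjusted p = 4.81e-07). The members' levels of both genes never overlapped with those of the other cells. No share of all genes was set beside such a lack of overlap, which is a description here and below. *St18* (7.71, SE 0.79) and *Myt1* (8.72, SE 0.64), the latter pair zinc-finger factors of neurons and endocrine cells, were also higher. The pioneer factor *Foxa2* of foregut endoderm reached 333.1, 334.9 and 349 CPM against 2.8, 2.05 and 1.27 CPM (7.13, SE 0.31). Smaller rises were seen for *Hes6*, an inhibitor of HES1 (1.79, SE 0.20), and for the LIM factor *Isl1* (0.98, SE 0.18, adjusted p = 0.0028), which the other cells expressed at 140.3 to 156.5 CPM. *Mycl* (−0.17, SE 0.17) and *Sox4* (0.20, SE 0.21) did not pass, and *Sox11* (3.05, adjusted p = 0.0702) passed with the library block (0.0438), with DESeq2 (0.00811) and without library 2 (0.0361). No UMI of *Insm2*, *Neurod4*, *Nkx2-2*, *Myt1l* or *Rfx6* was found in 96 members, which allows up to 3.12% of cells with a UMI. *Neurod1*, a later neuroendocrine factor, had a UMI in 5 members, all in library 1, and was too low to test.

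Of 39 granule and exocytosis genes, 3 belonged to the rule and 32 could be tested, of which 29 were higher in members, none was lower and 3 did not pass. The log2 fold changes of the 29 ran from 1.46 to 14.21, against a share of 16.2% of all genes called higher. *Resp18*, the fifth marker of the label, had 408.5, 195.6 and 266.5 CPM in members and 5 UMIs in all 28957 other cells (log2 fold change 14.21, SE 0.49, adjusted p = 2.38e-07), yet a UMI in only 59 of the members. The hormone-cleaving convertases *Pcsk1* (770.4, 627.5 and 691.6 CPM against 1.48, 0.196 and 0.0549) and *Pcsk2* (464.5, 292.7 and 510.8 against 0.219, 0.0545 and 0.114) were higher in all 3 libraries. So were the granule proteins *Scg3* (log2 fold change 9.46, SE 0.24) and *Scg5* (9.11, SE 0.61), the latter the chaperone of PCSK2. *Cpe* and *Pam*, which trim and amidate the cleaved peptides, were present in many cells of both kinds: *Pam* stood at 1064, 626.1 and 631.3 CPM against 507.6, 381.6 and 404 (0.59, SE 0.24, adjusted p = 0.0822), and *Cpe* at 71, 74.6 and 63.5 CPM against 40.9, 32.7 and 56.1 (0.45, SE 0.22, adjusted p = 0.141). Both passed when the library was a block in the fit (adjusted p = 0.00327 for *Pam* and 0.0342 for *Cpe*), and *Pam* also passed against depth-matched other cells (0.0218), where the call of *Syt5*, a calcium sensor of vesicles, was lost (0.221), as it was without library 2 (0.0506).

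The release machinery was present from the calcium sensor to the fusion complex. *Syt1*, a fast calcium sensor of exocytosis, had 1160, 1681 and 1862 CPM in members against 2.08, 3.22 and 4.2 in the other cells (log2 fold change 8.66, SE 0.36). *Syt7*, a slower sensor, was also higher (9.24, SE 0.35). *Syt4* had 253 UMIs in members and 3 UMIs in all other Epcam-positive cells. The fusion protein *Snap25* reached 710, 538.9 and 583.7 CPM against 0.478, 0.392 and 0.169 (10.63, SE 0.42). The vesicle protein *Syp* (7.84, SE 0.17), the complexin *Cplx2* (7.18, SE 0.18), the granule phosphatase homologue *Ptprn2* (7.27, SE 0.50) and the priming factor *Cadps2* (3.40, SE 0.15) followed, and none overlapped between the groups. Of the vesicular monoamine transporters, *Slc18a1* had a UMI in 44 members (4.29, SE 0.45), whereas *Slc18a2* had a UMI in 5. The *Slc18a2* call (2.25, SE 0.61, adjusted p = 0.018) was lost with the library block (0.0724), without library 2 (0.261) and without library 3 (0.069). The granule docking protein *Sytl4* was at 6.14, 5.63 and 22.2 CPM against 16.1, 15.6 and 20 (−1.22, SE 0.42, adjusted p = 0.0511), and passed in the lower direction with the library block (0.0196). It also passed with DESeq2 (0.0107), without library 3 (0.0097) and with no filter on low counts (0.0475). So it did without doublets (0.0496) and over stricter members (0.0483) or those with *Epcam* (0.0498) or *Insm1* or *Prox1* (0.0484). Against depth-matched other cells it did not pass (0.131).

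Peptide genes were few. Of 30 on the list, *Calca* belonged to the rule, 9 could be tested and 20 had no UMI in any member, among them *Vip*, *Tac1*, *Npy*, *Sst*, *Gal* and *Adcyap1*. *Cxcl13*, a B-cell attracting chemokine placed on the list as a secreted product, had 4328, 4442 and 2928 CPM and a UMI in 73 members, against 8.94, 0.338 and 0.867 CPM in the other cells (log2 fold change 9.93, SE 1.29, adjusted p = 0.000331). *Iapp*, the amylin gene of the calcitonin family, had 371.6, 247.6 and 2062 CPM against 0.398, 0.12 and 0.553 (10.84, SE 1.05, adjusted p = 5.78e-05), and came from 27 members, 4 of which held 85.5% of its 1250 UMIs. *Pomc* was at 2.63, 4.22 and 3.17 CPM in members, from 7 UMIs in 6 cells, against 0.428, 0.447 and 0.235 (2.89, SE 0.63, adjusted p = 0.00656; 0.0532 without library 2). *Adm*, the adrenomedullin gene, was lower (adjusted p = 0.00151), with 2 UMIs in members. Its level was 11.8-fold higher in the other cells of the same libraries (95% counting interval 3.26 to 97.1). The opioid peptide gene *Penk*, with no UMI in members, did not pass (adjusted p = 0.0558). It was lower with the library block (4.82e-05), with DESeq2 (0.00129), without doublets (0.0382), with no filter on low counts (0.0396) and without library 2 (0.0442). *Calcb*, the close relative of *Calca* whose reads might be confused with it, had a UMI in 15 members (1.48, SE 0.59, adjusted p = 0.0808) and is given no weight, although it passed with the library block (0.0493) and without library 3 (0.0131). *Grp*, encoding the bombesin-like peptide of airway neuroendocrine cells in several species, had 11 UMIs in 1 member of library 1, which lacked *Insm1* and *Prox1*.

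Of 14 amine and transmitter genes, 5 could be tested and 2 were higher, against 16.2% of all genes tested. *Ddc*, the decarboxylase that makes serotonin and dopamine from their precursors, had a UMI in 82 members, with 577.6, 537.5 and 663 CPM against 0.279, 0.251 and 0.118 (log2 fold change 11.27, SE 0.34, adjusted p = 9.75e-08). *Gad1*, which makes GABA, had a UMI in 26 members (6.91, SE 0.71, adjusted p = 8.32e-05). The tryptophan hydroxylase *Tph1*, which makes the precursor of serotonin, had 3 UMIs in 2 members, and *Th*, *Dbh* and *Chat*, for catecholamines and acetylcholine, had none.

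Ion channels of excitable cells were frequent. Of 29 sensory and excitability channel genes, 22 could be tested, 16 were higher and 3 were lower, against 16.2% and 20.6% of all genes. The P/Q-type calcium channel *Cacna1a* had 667, 688 and 761.4 CPM against 22.5, 23.9 and 17.6 (log2 fold change 4.77, SE 0.17), and its subunit *Cacna2d1* had 1743, 1942 and 3728 CPM against 125.6, 95.9 and 99.8 (4.24, SE 0.31). The sodium channels *Scn9a* (824.8, 855.5 and 1371 CPM against 0.12, 1.42 and 0.0432; 10.78, SE 1.19) and *Scn3a* (10.39, SE 0.50) were found in 89 and 84 members. The delayed-rectifier potassium channel *Kcnb2* (3.77, SE 0.21) was likewise higher. The mechanosensitive channels went opposite ways. *Piezo2* was higher (3.73, SE 0.73, adjusted p = 0.00351), from 13 members with 125.3, 59.1 and 0 CPM in libraries 1, 2 and 3 against 7.62, 2.4 and 3.65 CPM, so that library 3 went the other way, while *Piezo1* was lower (1.75, 2.81 and 0 CPM against 30.4, 30.6 and 27.6; −4.26, SE 0.39, adjusted p = 3.9e-05; −6.20 over members with *Insm1* or *Prox1*). The purinergic receptor *P2ry1* was lower too, with 3 UMIs in members and a level 21.7-fold higher in the other cells of the same libraries (95% counting interval 7.42 to 105). *Scn3b* was at 3.51, 7.04 and 6.35 CPM against 10.1, 14.4 and 9.59, and its call (−1.39, SE 0.42, adjusted p = 0.0287) was lost without library 1 (0.203), 2 (0.113) or 3 (0.0505).

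The 12 rises with the largest fitted log2 fold change were, beside *Resp18*, *Syt4*, *Pcsk2* and the vesicle GTPase *Rab3c*, the glutamate receptor auxiliary gene *Neto1*, the neural factor *Sox1*, the active-zone gene *Rimbp2*, the insulin receptor-related gene *Insrr*, the noncoding RNA *Miat*, the elongation-factor-like gene *Tcerg1l*, *Ly6h* of the nicotinic receptor-binding Ly6 family and the potassium channel *Kcnh5*. *Tcerg1l* stood at 776.6, 809 and 793.1 CPM against 0.229, 0.49 and 0.0589, and *Neto1* at 768.7, 662.7 and 945.4 CPM against 0.269, 0.24 and 0.0314, and each had a UMI in 90 members. *Sox1* had a UMI in 47 members and 4 UMIs in all other cells. *Miat* had 47 UMIs in members and 2 in the other cells. Among the 6 cells without *Insm1* and *Prox1*, 1 had a UMI of *Pcsk2* and none had a UMI of the other 11 genes.

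The 8 falls named by their fitted log2 fold change were genes with no UMI in any member. Their fitted order is then no order of size, and only bounds can be given, from a floor of 3 UMIs over the members of all libraries together. The floor was set against the UMIs that the members would hold at the level of the other cells of their own library. *Ggta1*, the enzyme that adds the alpha-galactosyl epitope, was at least 42.0-fold lower in members. The bound was at least 31.4-fold for the ciliary motor gene *Dnah3*, 20.4-fold for the antigen presentation gene *H2-Ab1*, 16.7-fold for *Osr1*, 16.5-fold for *Sptssb*, a sphingolipid synthesis subunit, 16.0-fold for *Sult1b1*, 15.2-fold for *Vsig8* and 13.9-fold for the cell cycle gene *Top2a*.

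Members held more RNA of *Epcam* and of 3 of 4 simple-epithelial keratins than the other cells and less RNA of basal, secretory and ciliated genes. *Epcam* stood at 1430, 1293 and 1945 CPM against 598.5, 496.1 and 666.5 in the other cells, although these were chosen for it (log2 fold change 1.13, SE 0.19, adjusted p = 0.00143). The simple-epithelial keratins *Krt8* (575.9, 650 and 840.7 CPM against 153.8, 134.5 and 164.2; 1.91, SE 0.16), *Krt18* (1.76, SE 0.18) and *Krt7* (1.93, SE 0.19) were higher, and *Cldn4* was lower (−1.82, SE 0.14). The keratin *Krt19* stood at 462.8, 485.4 and 542.5 CPM against 452.7, 421.2 and 490.3 and did not pass (−0.15, SE 0.13, adjusted p = 0.393). Of 10 simple epithelial genes 7 were called higher, but the calls of the tight junction gene *Cldn7* and the cadherin *Cdh1* were lost without library 1 (adjusted p = 0.203 and 0.249), 2 (0.106 for each) or 3 (0.0504 and 0.125). Members were deeper than the other cells, and against depth-matched other cells the calls of *Cldn7* (0.191) and of the tight junction gene *Cldn3* (0.60, adjusted p = 0.15, against 0.94 and 0.00614) were lost. All 5 basal genes were lower: *Krt5*, also a gene of the mixed-marker rule, stood at 35.1, 42.2 and 53.9 CPM against 811.9, 810.1 and 1691 (−4.99, SE 0.36), and *Trp63* at 21, 22.5 and 9.52 against 552.3, 565.4 and 702.4 (−5.22, SE 0.24). All 7 secretory genes were lower, although 2 of them, *Scgb3a1* and *Ltf*, are genes of the mixed-marker rule. *Scgb3a1* had 97.3, 67.5 and 34.9 CPM against 2324, 1456 and 683.4. *Bpifa1* still had a UMI in 93 of 96 members, with 3283, 388.3 and 104.7 CPM against 14620, 7120 and 5778 (−3.08, SE 1.02, adjusted p = 0.0427; 0.128 without library 2, 0.0846 without library 3 and 0.0585 against depth-matched other cells). The *Scgb1a1* call was also lost against depth-matched cells (adjusted p = 0.0957). All 5 ciliated genes were lower, with *Foxj1* at 1.75, 1.41 and 3.17 CPM against 53.5, 32.9 and 19.7. Over all genes, 16.2% were called higher and 20.6% lower.

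Immune and fibroblast genes were also found in members, at lower summed levels than in the other cells once the 6 cells were left out. Of the 4 immune genes, *Lyz2* had a UMI in 44 members, 42 of them with *Insm1* or *Prox1*, at 42.1, 19.7 and 15.9 CPM against 1755, 1069 and 701.1 (−5.59, SE 0.46, adjusted p = 2.11e-05). *Ptprc* (called higher without library 1, adjusted p = 0.03) and *C1qb* (lower with the library block, 0.00618) were not called. The 4 genes summed to 43, 60.5 and 19 CPM in members, to 1779, 1074 and 703.9 in the other cells and to 41.8, 20.2 and 19 in members with *Insm1* or *Prox1*. *Dcn* had a UMI in 20 members with *Insm1* or *Prox1*, and among the basal and secretory genes *Krt15* had one in 59 of them, *Scgb3a1* in 62 and *Cyp2f2* in 71. The 5 fibroblast genes summed to 39.4, 655.7 and 9.52 CPM in members and to 802.9, 280.9 and 571.9 in the other cells, and to 40, 12.5 and 9.52 in members with *Insm1* or *Prox1*. None of them, which include the mixed-marker gene *Dcn*, passed, and 3 (*Col1a1*, *Col1a2* and *Dcn*) were lower with the library block. Without library 2, the same 3 were lower, *Dcn* (adjusted p = 0.000144), *Col1a2* (0.000471) and *Col1a1* (0.00279). *Cd3e*, *Cdh5*, *Cldn5*, *Sox10* and *Pth* had no UMI in members. Of 11 cell cycle genes, 6 were lower, against 20.6% of all genes tested. With the library block 8 of them were lower, as *Ccnb1* (adjusted p = 0.0282) and *Ccna2* (0.0142) passed. *Mki67* had 1 UMI in 96 members against 17.6, 7.39 and 36.1 CPM in the other cells, where it was 36.7-fold higher within libraries (95% counting interval 6.59 to 1450; adjusted p = 0.00913, and 0.0749 without library 1), and *Top2a* had none. Without library 1, the calls of *Cdk1* (0.131), *Birc5* (0.152) and *Ube2c* (0.216) were lost too, that of *Birc5* also without library 3 (0.0563) and that of *Ube2c* also without library 2 (0.0505).

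**Figure D2:**
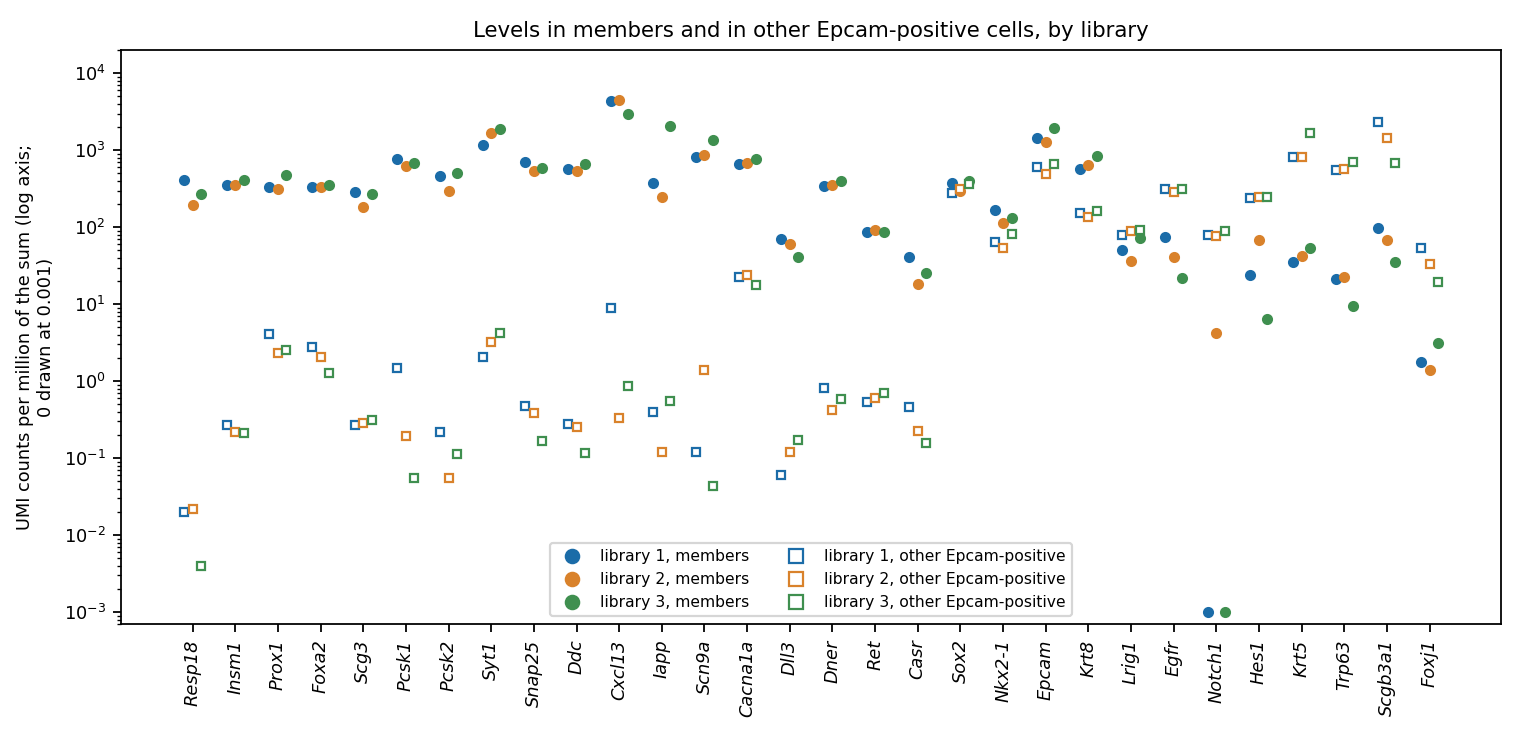
Summed levels in CPM (log axis, 0 drawn at 0.001) of 30 genes in members (filled circles) and other Epcam-positive cells (open squares), by library in colour. The neuroendocrine genes at the left lie orders of magnitude apart, *Sox2*, *Nkx2-1* and *Lrig1* lie close together, and the *Notch1*, *Hes1*, basal, secretory and ciliated genes at the right are lower in members.

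Genes of the Notch pathway went both ways in members. Receptors read the ligand on a neighbour and induce repressors such as *Hes1*. Of 20 pathway genes, 17 could be tested, 5 were higher and 8 were lower, against 16.2% and 20.6% of all genes tested. With the library as a block in the fit 10 were lower, since the repressors *Hey1* (adjusted p = 0.0314, against 0.0642) and *Heyl* (0.0443, against 0.0524) passed too. The receptor *Notch1* had 0, 4.22 and 0 CPM in members, 3 UMIs in 3 cells, against 80.3, 77.5 and 88.3 CPM in the other cells, where it was 58.2-fold higher within libraries (95% counting interval 19.9 to 282; adjusted p = 1.42e-05). Of these 3 cells, 1 held *Insm1* or *Prox1*. *Notch2* stood at 23.7, 39.4 and 19 CPM against 86.8, 68.4 and 74.6 (−1.70, SE 0.22), and *Notch3* was lower as well (−2.01, SE 0.33). *Hes1* had 23.7, 67.5 and 6.35 CPM against 242.9, 247.2 and 246.5 (−3.05, SE 0.40, adjusted p = 0.000347; −3.94 over members with *Insm1* or *Prox1*), and the coactivator *Maml2* fell by 2.89 on the log2 scale (SE 0.24). The ligands *Jag1* (−2.32, SE 0.28) and *Jag2* (−1.92, SE 0.15) were lower. So was *Rfng*, a call lost without library 1 (adjusted p = 0.17) or 2 (0.129) and against depth-matched other cells (0.128).

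Higher in members were *Dll3*, a ligand that inhibits Notch within the same cell (70.1, 60.5 and 41.2 CPM against 0.0598, 0.12 and 0.173; 8.60, SE 0.41, adjusted p = 1.11e-06), the neuronal ligand *Dner* (345.3, 354.6 and 402.9 CPM against 0.827, 0.425 and 0.581; 8.96, SE 0.25) and *Mfng*, a sugar transferase that tunes the receptors (6.17, SE 0.84). *Dll4* was called higher in 22 cells (4.72, SE 1.13, adjusted p = 0.0102), a call lost without library 2 (0.051) or 3 (0.0574). *Lfng* stood at 28.9, 38 and 41.2 CPM against 18.5, 18.8 and 15.7 (0.71, SE 0.20, adjusted p = 0.0228), and its call was lost without library 1 (0.0617), 2 (0.132) or 3 (0.0974). *Dll1* did not pass (−0.41, SE 0.21).

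Whether airway neuroendocrine cells and thyroid C cells could be told apart was asked of 6 C cell genes, the factors of the foregut and the follicular genes of the thyroid. *Ret*, the GDNF family receptor that is mutated in C cell tumours, had 86.8, 92.9 and 85.7 CPM in members and a UMI in 63 of them, against 0.538, 0.61 and 0.71 CPM in the other cells (log2 fold change 6.88, SE 0.19, adjusted p = 5.24e-08). *Casr*, the calcium-sensing receptor, had 41.2, 18.3 and 25.4 CPM and a UMI in 35 members, against 0.458, 0.229 and 0.157 (6.45, SE 0.59, adjusted p = 4.09e-05). *Glp1r* had a UMI in 8 members, none of them in library 3, and 13 UMIs in all (5.83, SE 1.37, adjusted p = 0.00942). *Gfra4*, the persephin co-receptor of C cells, had 2 UMIs in 2 members (adjusted p = 0.274), and the gastrin receptor *Cckbr* also had 2 UMIs in 2 members (adjusted p = 0.671). *Calcb* is given above. *Gfra1*, the GDNF co-receptor, was lower in members (20.2, 38 and 3.17 CPM against 194, 168.3 and 105.4; −3.01, SE 0.41).

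No cell carried the whole C cell list. *Calcb* was left out of the count, since its reads might be those of *Calca*. Of the 90 members with *Insm1* or *Prox1*, 16 had none of the other 5 genes, 41 had 1, 30 had 2 and 3 had 3, and no cell had 4 or 5. The 3 cells with 3 genes were in the group with high *Calca*, as were 65 of the 90. Most of these counts were 1 to 3 UMIs per gene and cell, so a gene not seen in a cell may have been missed. *Ret* and *Casr* occurred in cells with and without *Calca*: *Ret* stood at 95.8, 109.3 and 154.4 CPM in members with high *Calca* and at 39.1, 80.7 and 55 in those with low *Calca*, and *Casr* at 38.1, 16.2 and 0 against 65.1, 33.6 and 36.7. By CPM, *Casr* was lower in the members with high *Calca* in each library, on 37, 8 and 0 UMIs against 10, 5 and 8. In library 3, 1 cell held 5 of the 8 UMIs of the members with low *Calca*, and only 5 cells had high *Calca*.

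Of 14 foregut patterning factors, 5 were higher in members, 4 were lower and 5 did not pass. The shares over all genes were 16.2% called higher and 20.6% lower. *Nkx2-1*, used by both lung and thyroid, had a UMI in 70 members, at 169.2, 114 and 133.2 CPM against 64.8, 53.9 and 80.6 (log2 fold change 0.82, SE 0.20, adjusted p = 0.0101; 0.138 without library 1). *Sox2* of the airway and oesophagus had a UMI in 91 members, at 379.5, 299.7 and 399.7 CPM against 276.1, 312.5 and 365.6 (−0.10, SE 0.16, adjusted p = 0.68), with groups that overlapped. *Hoxb5* stood at 374.3, 533.3 and 558.4 CPM against 4.5, 4 and 4.15 (6.57, SE 0.19, adjusted p = 7.04e-08), and *Hoxb3* at 135.9, 152 and 161.8 CPM against 33, 34.6 and 38.3 (1.80, SE 0.12). *Pax9*, a factor of the pharyngeal pouches, was found in 80 members (132.4, 135.1 and 142.8 CPM against 140.5, 157.2 and 191.9; −0.53, SE 0.15, adjusted p = 0.02), a call lost without library 1 (0.0528) or 2 (0.108). The calls of *Hoxa3* (0.258 without library 1, 0.0997 without 3) and *Pax1* (0.108 without library 2, 0.0908 without 3, 0.0601 against depth-matched other cells) were lost as well. *Foxe1*, of the thyroid and the oral and oesophageal lining, was lower (14, 2.81 and 3.17 CPM against 44.9, 51.5 and 74.1; −3.00, SE 0.44). Its level in library 1 was 16 UMIs in 1 member without *Insm1* and *Prox1*, and over members with either gene the log2 fold change was −6.13.

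Of 7 thyroid follicular genes, 5 could be tested, none was higher in members and 1, *Foxe1*, was lower. Over all genes, 16.2% were called higher and 20.6% lower, so this count does not set the list apart. Over members with *Insm1* or *Prox1*, 3 were lower. *Tg* had a UMI in 7 members, and its level of 549.6, 16.9 and 0 CPM rested on the member of library 1 with 625 UMIs. The 7 follicular genes summed to 607.4, 19.7 and 3.17 CPM in members and to 331.5, 314.2 and 112.2 in the other cells, but to 2.67, 4.67 and 3.17 in members with *Insm1* or *Prox1*. Over those members alone, an alternative chosen after seeing the data, *Tg* changed from a log2 fold change of 0.06 (SE 1.15, adjusted p = 0.981) to −6.75 (adjusted p = 0.00581). Among members, *Pax8* and *Tshr* were found only in that 1 cell of library 1, and without library 1 *Tshr* was called lower (adjusted p = 0.00846). Follicular cells were nonetheless present in the libraries: 46, 26 and 13 kept barcodes held both at least 5 *Tg* UMIs and *Pax8*. No population of known C cells is in these data, so no gene could be set as present in C cells and absent from airway cells, and the origin of the members in airway or thyroid was not determined.

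Members were then split by *Calca*. A Calca-high member held at least 5 *Calca* UMIs at 5 or more per 10000, and a Calca-low member met the rule by its granins alone. Calca-high members were 41 of 52 (78.8%; 95% Wilson interval 66 to 87.8), 24 of 31 (77.4%; 60.2 to 88.6) and 5 of 13 (38.5%; 17.7 to 64.5) in libraries 1, 2 and 3, a mean of 64.9% ± 22.9 (SD, n = 3). The planned test between Calca-high and Calca-low sums needed at least 10 cells of each kind in every library and was not run, since libraries 2 and 3 held 7 and 8 Calca-low and library 3 held 5 Calca-high members. The values of the 65 Calca-high and 25 Calca-low members with *Insm1* or *Prox1* are therefore a description.

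As a share of kept barcodes, Calca-high members with *Insm1* or *Prox1* were 0.319%, 0.28% and 0.0234% in libraries 1, 2 and 3, and Calca-low members with either gene were 0.0877%, 0.084% and 0.0375%. The Calca-high interval of library 3 (0.01 to 0.0548) lay below those of library 1 (0.234 to 0.434) and library 2 (0.181 to 0.432), while the Calca-low intervals overlapped between all libraries. Cells with *Tg* and *Pax8* were likewise fewest in library 3, with 0.367%, 0.364% and 0.0609%. So were endothelial-marked cells (*Pecam1* and *Cdh5* without *Epcam*), with 3.36%, 0.42% and 0.145%, where the interval of library 3 (0.102 to 0.206) lay below that of library 2 (0.294 to 0.599). Fibroblast-marked cells, by contrast, made up 11.5%, 4.34% and 6.84%. Ciliated-marked cells made up 3.99%, 4.05% and 2.92%, and cells with the muscle satellite genes *Pax7* and *Myf5* 5.49%, 8.32% and 5.23%. A share lowest in library 3 was thus not particular to the members and the follicular cells. The share of endothelial-marked cells was already lower in library 2 than in library 1, however, whereas members and follicular cells had close shares in both. Cells with *Krt5* and *Trp63* rose instead, with 41.8%, 59.1% and 71.3% of kept barcodes in libraries 1, 2 and 3. Whether the share of follicular cells and that of Calca-high members are linked was not tested.

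**Figure D3:**
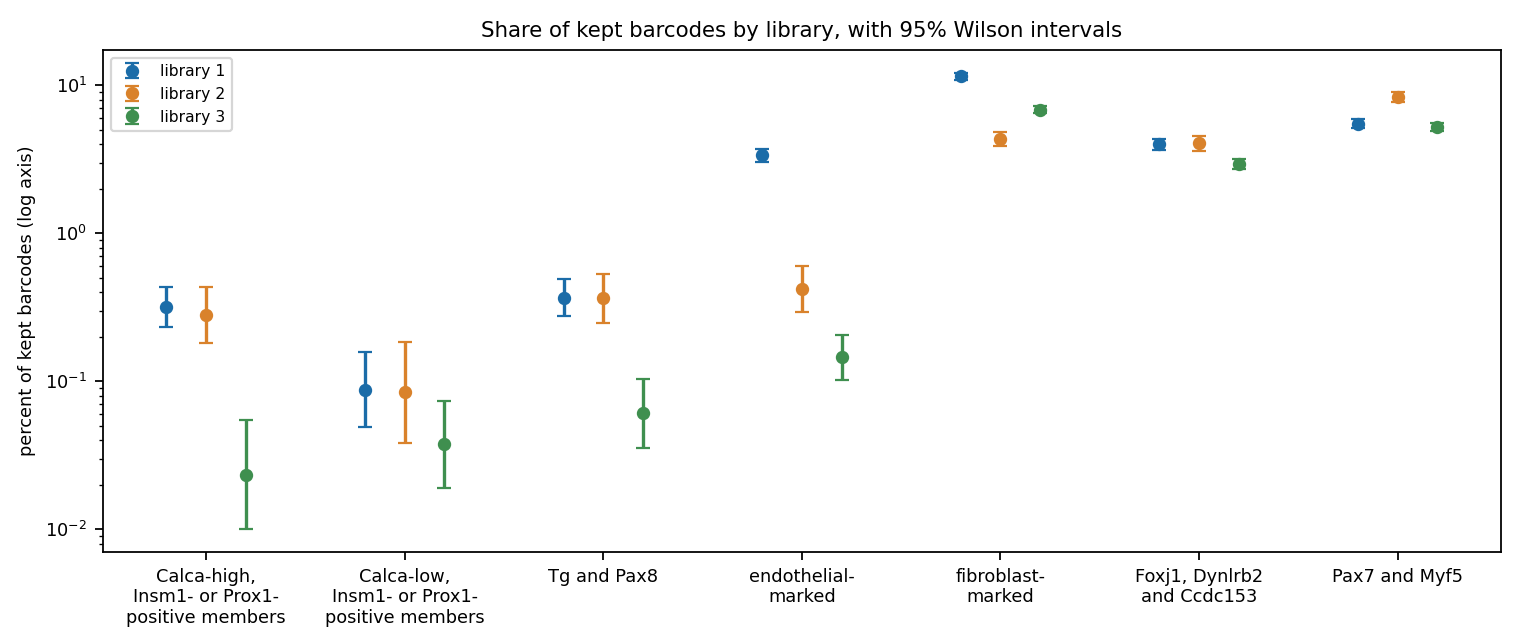
Percent of kept barcodes (log axis) in 7 groups of cells, by library, with 95% Wilson intervals. Calca-high members with *Insm1* or *Prox1* and cells with *Tg* and *Pax8* are far lower in library 3 (0.0234% and 0.0609%), endothelial-marked cells fall from 3.36% in library 1 to 0.145% in library 3, and ciliated-marked cells, fibroblast-marked cells and cells with *Pax7* and *Myf5* stay at 2.92% or more in all 3 libraries.

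Within the members with *Insm1* or *Prox1*, *Nkx2-1* and *Iapp* went opposite ways. *Nkx2-1* had a UMI in 35 of 40, 19 of 20 and 4 of 5 Calca-high members of libraries 1, 2 and 3, and in 4 of 11, 2 of 6 and 4 of 8 Calca-low members. These Calca-low cells held 5, 8, 8 and 6 *Calca* UMIs in library 1, 7 and 11 in library 2 and 0, 9, 8 and 1 in library 3. Most of them thus had *Calca* and were Calca-low by its rate. *Iapp* had a UMI in 4, 2 and 2 Calca-high members and in 10 of 11, 2 of 6 and 7 of 8 Calca-low members. In CPM, *Iapp* stood at 87.6, 6.07 and 61.8 in Calca-high and at 2207, 1164 and 2953 in Calca-low members. The Calca-low sums rested on few cells: 1 cell held 287 of 339 *Iapp* UMIs in library 1, 1 cell 161 of 173 in library 2, and 2 cells 312 and 309 of 644 in library 3. In Calca-high members of library 1, 1 cell held 79 of 85. Without the highest cell of each group and library, a step chosen after seeing the data, *Iapp* stood at 6.37, 2.1 and 15.8 CPM in Calca-high and at 432.8, 108.1 and 1806 CPM in Calca-low members. The sums kept their order in each library, whereas single cells overlapped, since 1, 4 and 1 Calca-low cells of the libraries had no *Iapp* UMI. Without the 3 doublet-scored cells, *Nkx2-1* was found in 1 of 8 Calca-low members of library 1. The median depth of Calca-low members was lower than that of Calca-high members in library 1 (9179 UMIs against 28530) and higher in library 2 (28531.5 against 26102.5) and library 3 (31946.5 against 19426), and its part in these values was not tested.

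Other genes differed between the same groups. *Cxcl13* stood at 4941, 5823 and 5014 CPM in Calca-high and at 918, 1884 and 1999 CPM in Calca-low members. In Calca-low members of library 1, 1 cell with 5 *Calca* UMIs held 127 of 141 *Cxcl13* UMIs. In those of library 2, 2 cells with 11 and 7 *Calca* UMIs held 189 and 86 of 280. Without the highest cell of each group and library, *Cxcl13* stood at 4441, 5157 and 3804 against 110.7, 741.9 and 1561 CPM. *Pcsk2* was at 520.1, 374.5 and 628.1 against 136.7, 154.7 and 458.5 CPM, and *Piezo2* at 147.3, 74.9 and 0 against 0 in all 3 libraries. In library 3, *Pcsk2* had a UMI in 3 of 5 Calca-high and 7 of 8 Calca-low members. *Piezo2* had a UMI in only 9 of 40, 3 of 20 and 0 of 5 Calca-high members, with 23 of 37 UMIs of library 2 in 1 cell. With 11, 6 and 8 Calca-low cells, it may have been missed there. Lower in Calca-high members were the taste-cell channel *Pkd1l3* (14.4, 0 and 10.3 CPM against 58.6, 141.3 and 82.5) and, picked after their values were seen, the splicing factor *Rbfox1* (19.6, 28.3 and 0 against 214.8, 941.9 and 133), the hindlimb and pharyngeal factor *Pitx1* (1.03, 2.02 and 0 against 19.5, 40.4 and 32.1) and the granzyme *Gzma* (103, 34.4 and 82.4 against 423.2, 349.8 and 169.7). Single cells weighed on these sums as well: in Calca-low members of library 1, 1 cell held 8 of 9 *Pkd1l3* UMIs, and without it the level of 8.32 CPM was below the 14.4 CPM of Calca-high members, while the 3 *Pitx1* UMIs there all came from doublet-scored cells. *Ly6h* (521.2, 491.9 and 205.9 against 32.6, 100.9 and 137.6) and the catenin *Ctnna2* (402.7, 143.7 and 422.1 against 0, 13.5 and 45.9) ran the other way, and in library 2 all 15 *Ly6h* UMIs of the Calca-low members were in 1 cell. In library 3, *Ly6h* had a UMI in 3 of 5 Calca-high and 7 of 8 Calca-low members. Without the highest cell of each group it stood there at 110.7 against 97.8 CPM. *Insm1*, *Foxa2*, *Sox2* and *Resp18* overlapped between both groups.

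Setting *Nkx2-1* at 1 UMI and *Iapp* at 5 UMIs, a division chosen after the data were seen, 64 members held *Nkx2-1* alone, 11 *Iapp* alone, 4 both and 11 neither. The 64 held 0 to 3 *Iapp* UMIs each, so some of them had both genes at a threshold of 1 UMI for each. Of the 64, 57 were Calca-high, with a median of 131.5 *Calca* UMIs. Of the 11 with *Iapp* alone, 1 was Calca-high, and the median was 0 *Calca* UMIs at a median depth of 29363 UMIs. In these 11, *Iapp* ran from 5 UMIs, the least that the division allows, to 312. Of the 4 cells with both genes, 3 were scored as doublets; these were Calca-low cells of library 1 and held 5 to 14 *Krt5* UMIs. Without the doublet-scored cells, 1 cell held both, and the counts of the other 3 kinds were as before. Cells with neither had a median of 3817 UMIs, 9 of them 1634 to 9718 and the other two 31082 and 37475. The 11 cells with *Iapp* alone came from all libraries, 5, 2 and 4.

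**Figure D4:**
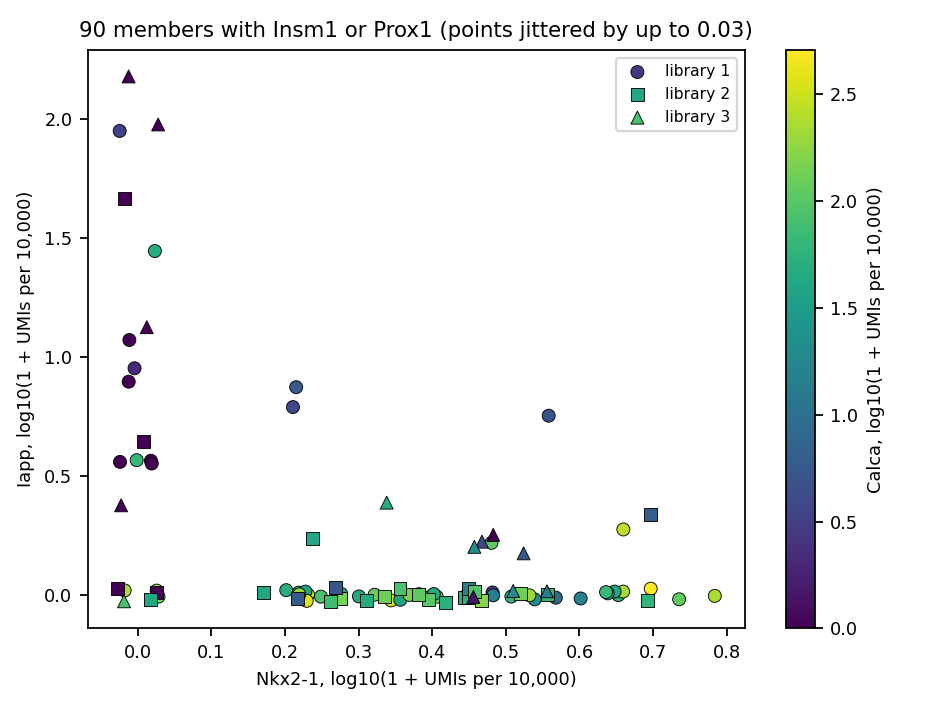
*Nkx2-1* against *Iapp* in the 90 members with *Insm1* or *Prox1*, each as log10(1 + UMIs per 10000 UMIs), with *Calca* in colour, the library as the marker shape and the points slightly jittered. Cells high in *Iapp* sit at the left edge without *Nkx2-1* and mostly without *Calca*, and 4 cells have both *Nkx2-1* and at least 5 *Iapp* UMIs, 3 of them scored as doublets.

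*Lrig1* drives the Cre that marked the cells and had not chosen the members. A *Lrig1* UMI was found in 57.7%, 48.4% and 61.5% of members of libraries 1, 2 and 3 and in 51.8%, 65.9% and 59.7% of the other Epcam-positive cells. The difference was 5.91, −17.5 and 1.83 percentage points, a mean of −3.27 (SD 12.5, n = 3; exact sign-flip permutation test, two-sided, p = 1.0), where 3 libraries cannot give a p under 0.25. Members were deeper, however. With every cell thinned to 5000 UMIs, and 5, 1 and 1 members and 1229, 304 and 1905 other cells left out as shallower, the shares were 21.4%, 13.7% and 27.6% against 30.2%, 34.3% and 34.1%. The difference was then −12.0 points (SD 7.55) and lower in 3 of 3 libraries, at the smallest p the exact test allows (p = 0.25). The summed level of *Lrig1* was lower in members, at 50.8, 36.6 and 73 CPM against 79.7, 89.7 and 92.4 (log2 fold change −1.06, SE 0.20, adjusted p = 0.0028).

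The LRIG1 protein restrains receptors of the epidermal growth factor family. Of 7 genes of this family and its regulators, 6 were lower in members: beside *Lrig1*, *Lrig3* (8.77, 9.85 and 3.17 CPM against 86.7, 101.9 and 96.3; −3.79, SE 0.24), *Egfr* (75.4, 40.8 and 22.2 CPM against 316.5, 290.1 and 318.7; −2.82, SE 0.29), *Erbb2* (−2.25, SE 0.25), *Erbb4* (−3.16, SE 0.72) and *Erbb3*. The share of all genes called lower was 20.6%. *Erbb4* had 10 UMIs in 2 members, 9 of them in 1 cell, and over members with *Insm1* or *Prox1* its log2 fold change was −6.37. The *Erbb3* call (−0.60, SE 0.17, adjusted p = 0.0191) did not hold its direction in the CPM of library 3 and was lost without library 1 (0.17) or 2 (0.176) and against depth-matched other cells (0.0621). *Lrig2* did not pass (−0.28, SE 0.14). Between Calca-high and Calca-low members with *Insm1* or *Prox1*, the shares with a *Lrig1* UMI were 62.5%, 45% and 60% against 45.5%, 83.3% and 62.5%, with no common direction.

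**Figure D5:**
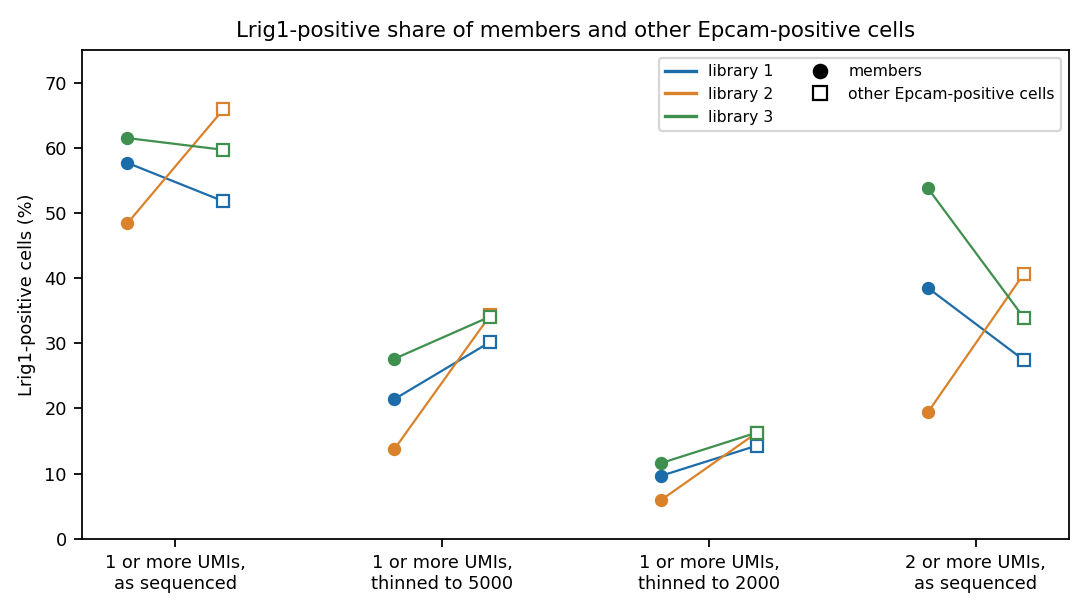
Percent of members (circles) and other Epcam-positive cells (squares) with *Lrig1*, joined within each library, as sequenced, with cells thinned to 5000 and 2000 UMIs, and at 2 or more UMIs. The lines cross as sequenced (57.7%, 48.4% and 61.5% against 51.8%, 65.9% and 59.7%) and all point the same way in the thinned cells, but cross again at 2 or more UMIs.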

How the data were processed

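Single-cell RNA was captured with 10x GEM-X 3′ chemistry from 3 libraries of tdTomato-sorted larynx cells, each a pool of 10 larynges. The authors aligned and counted reads with Cell Ranger 8.0.1 on GRCm39 and deposited raw UMI counts per gene and barcode. The annotation release was not given in the sources used here. Wild-type and reporter-only mice served to set sort gates and gave no library. Gene positions are from the GENCODE annotation of GRCm39, and promoters from RefSeq on GRCm38.p6.

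Barcodes were filtered and members chosen as the report states. The members and gene lists were chosen with earlier results of these data known. Counts were summed per library over members and over other Epcam-positive cells and compared with edgeR 4.0.16 (quasi-likelihood test, TMM scaling, filter on low counts, Benjamini-Hochberg adjustment, threshold 0.05) in R 4.3.3, with no library block. The 4 rule genes were left out. Log2 fold changes are members over other cells, with standard errors (SE). Libraries are pools of separate larynges, and p-values rest on the spread of the sums of 3 pools within each group. This spread also holds the counting error of few cells, such as the 13 members of library 3. The member sum and the other sum of 1 library share a pool, which pairs them by design, and the main fit did not use this pairing. The correlations of their deviations over 17601 genes were 0.0405, −0.00867 and 0.176.

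Genes named by size were the 12 rises and 8 falls with the largest fitted log2 fold changes that passed the threshold, averaged 10 CPM or more and moved one way in every library, leaving out predicted and unnamed genes. Other named genes come from the lists, less some genes that are not reported here. Shares have 95% Wilson intervals, a count of 0 allows up to 3 counts, and both cover counting error only. A ratio resting on 1 to 3 UMIs sets the members' count against the UMIs expected at the level of the other cells of each library, with an exact Poisson interval of that count. Genes at 0 in all members have bounds from the same expectation and a floor of 3 UMIs over the group.

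Doublets were not removed in the main analysis. In an alternative, they were scored against simulated doublets on 30 principal components of 2000 variable genes with 50 neighbours and removed at 0.4% per 1000 barcodes, which took 4089 barcodes and 4 members. Other alternatives were DESeq2 1.42.0, RLE scaling, no filter on low counts, the library block, stricter members, depth-matched other cells and each library left out. The restriction to members with *Insm1* or *Prox1* and the levels without the highest cell were chosen after seeing the data. The edgeR step was tested on simulated data. Python 3.11.15, scipy 1.17.1, pandas 2.3.3 and scikit-learn 1.9.0 were used.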

Additional observations from a re-analysis of the deposited data

How the results depend on the processing

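The number of genes called between members and other Epcam-positive cells lay between 5143 (depth-matched other cells, where 12177 genes were tested against 17601) and 7064 (DESeq2) under the alternatives that kept all libraries, against 6481. Leaving out 1 library gave 4052 to 5789, lowest without library 1, where fewer libraries enter the fit. The library block gave 6658, and among the 149 named genes it ended the call of *Slc18a2* and added 16 calls. Depth-matched other cells left 126 of them testable, ended 8 calls and added 3. Leaving out library 1, 2 or 3 ended 14, 15 and 11 of the named calls. Over members with *Insm1* or *Prox1* only, chosen after seeing the data, 6830 genes were called, and *Tg* turned from 0.06 to −6.75. The difference in the share with *Lrig1* turned to 3.23 points at 2 or more UMIs, and ranged from −7.85 to 3.87 when 1 library was left out, turning without library 2. The cause of these turns was not tested. The member share (0.238% to 0.424%) and the Calca-high share (57.9% to 78.1%) moved by less than 1 SD between libraries under all their alternatives. The test between Calca-high and Calca-low members and its alternatives were not run. The exact sign-flip test used for shares cannot give a p under 0.25 with 3 libraries.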

Other observations

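Of 11 neural adhesion and RNA-binding genes, 10 could be tested and 8 were higher in members, against 16.2% of all genes tested. *Elavl4*, a neuronal RNA-binding gene, had 332.2, 330.6 and 326.8 CPM in members of libraries 1, 2 and 3 and 0.11, 0.327 and 0.0432 CPM in the other Epcam-positive cells (log2 fold change 11.02, SE 0.55, edgeR adjusted p = 1.29e-06). *Ncam1*, an adhesion molecule of neurons and neuroendocrine cells, had 338.3, 329.2 and 310.9 CPM against 8.25, 3.93 and 6.52 (5.45, SE 0.27). The levels of *Elavl4* and *Ncam1* in members did not overlap with those of the other cells. The 11 genes together summed to 2262, 1954 and 1742 CPM in members and to 132.9, 81.9 and 94.3 in the other cells.

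Of 5 genes of sour-sensing taste type III cells, 4 could be tested, and most of these were found in few members. All 4 were called higher, against 16.2% of all genes tested. They were *Car4*, *Ddc*, which is also on the amine list, and the channel subunits *Pkd1l3* (20 members; 20.2, 29.6 and 60.3 CPM against 0.309, 0.501 and 0.334; 6.21, SE 0.53) and *Pkd2l1* (5 members, 12 of 18 UMIs in 1 of them; 8.26, SE 0.90). *Car4* had a UMI in 3 members, none of them in library 3. The sour channel *Otop1* had 5 UMIs in 2 members, both in library 2, and was too low to test. Of 8 tuft and taste type II genes, only 3 could be tested. None was higher and 1 was lower, against 16.2% and 20.6% of all genes tested. The lower gene was *Pou2f3*, with 1 UMI in members (adjusted p = 0.0167), a call lost without library 1 (0.0862), 2 (0.0979) or 3 (0.0601). A second gene of this list, *Dclk1*, was lower with the library block (0.00134). The paraganglion genes *Phox2a*, *Hand2*, *Th* and *Dbh* had no UMI in any member, whereas the neuronal tubulin *Tubb3* had one in 37 members (44.7, 40.8 and 25.4 CPM against 0.428, 0.436 and 0.53; 6.09, SE 0.35).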
